A study of Mus musculus with 2 samples.

Results

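The genes described here are 9 dendritic cell genes, chosen by name, of the 21938 protein-coding genes of the mouse annotation. The 6 conventional dendritic cell genes are Zbtb46, Batf3, Id2, Xcr1, Clec9a and Itgax, and the 3 plasmacytoid dendritic cell genes are Tcf4, Bst2 and Siglech. DNase-seq maps accessible chromatin by sequencing the ends that the nuclease DNase I leaves where it cuts open DNA. The tissue was whole spleen from males of the strain B6CASTF1/J at an age of 10 days, the F1 hybrids of C57BL/6 and CAST/EiJ. The study has 2 libraries of this 1 group, biological replicates 1 and 2, so there is no contrast between conditions. The labels number 2 males but give them a shared donor identifier, so the spread between the libraries may be partly technical.

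For each gene, peaks within 500 bp of any transcription start site (TSS), inside the gene, and within 50 kb of the gene were taken from each library, with the footprints in them. A peak is a stretch with a called excess of cuts, and its signal is the cut density the authors gave it. A footprint is a short protected stretch within accessible DNA, and some footprints lay outside the peaks used here. A site is a merged stretch of overlapping peaks, and a site in both holds a peak of each library. Replicate 1 had 130476 peaks and replicate 2 had 95847, with median signals of 0.578 and 0.553. No source used here states how signal was scaled, so values were compared within a library, and the 2 libraries by ratios alone. Whether signal was scaled alike at all loci is also unknown, so orders and percentiles of genes are those of deposited signal only. At promoters present in both, signal was higher in replicate 1 by a median of 1.28 on the log2 scale (SD 0.41 over 13323 genes). The absolute depth is unknown. As a check of the tissue, promoter peaks of both libraries were found at the red cell genes Klf1, Epor and Slc4a1 and the B cell genes Cd79a, Pax5 and Ms4a1. Such a peak was common, at 60.7% of all protein-coding genes. Median promoter signal in replicates 1 and 2 was 7.89 and 3.63 in the red cell list and 1.65 and 0.963 in the B cell list. Over all promoters with a peak it was 6.93 and 3.51. Counts for other cell types were 2 of 4 macrophage genes, 1 of 4 T cell genes, 1 of 4 NK cell genes, 2 of 4 neutrophil genes and 0 of 4 liver genes.

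Dendritic cells capture antigen and prime T cells. Conventional dendritic cells depend on transcription factors such as BATF3 and on ID2, a helix-loop-helix protein that binds E proteins and keeps them from DNA. Plasmacytoid dendritic cells produce type I interferon and depend on the E protein TCF4 (E2-2), so that ID2 and TCF4 work against each other in the choice between the lineages. Both kinds are a minority of spleen cells, and several of these genes are also used elsewhere: TCF4 in B cells, ID2 in innate lymphoid cells, CD11c on some macrophages, and BST2 in many cells exposed to interferon. In whole tissue, fewer cells of a type and less accessible DNA per cell cannot be told apart.

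Promoters of the transcription regulators, of Bst2 and, weakly, of the surface lectin gene Siglech were accessible in both libraries. Xcr1, Clec9a and Itgax, which encode surface receptors of conventional dendritic cells, had no promoter peak shared by the libraries. A promoter peak was called in both libraries in 3 of 6 conventional genes (Zbtb46, Batf3 and Id2) and in 3 of 3 plasmacytoid genes (Tcf4, Bst2 and Siglech), against 60.7% of all protein-coding genes. In replicate 1 the counts were 4 of 6 and 3 of 3, against 67.7% of all genes, and in replicate 2 they were 3 of 6 and 3 of 3, against 61.3%. Over all 9 genes the share called in both was 66.7%, a share near that of all genes. With 6 and 3 genes chosen by name and 1 group of samples, no test between the lists was made.

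Signal at the accessible promoters was near the median of all genes at 4 genes and lower at the other two. The strongest promoter peaks of Zbtb46, Id2, Tcf4 and Bst2 lay between 7.42 and 9.55 in replicate 1 and between 3.64 and 4.37 in replicate 2, close to the median promoter peak of all genes (6.93 and 3.51). Among the 14842 and 13453 promoters with a peak, these 4 genes stood at percentiles 51.4 to 58.3. Batf3 was lower, at 1.62 and 0.532, and Siglech was the weakest of the 6, at 0.345 and 0.255. The order was Tcf4, Bst2, Zbtb46, Id2, Batf3 and Siglech in replicate 1. In replicate 2 Bst2 stood above Tcf4. In either library the whole span of the 4 upper signals was smaller than the SD of the ratio between the libraries (0.41 on the log2 scale), so their order is not resolved. The libraries' log2 ratio at these 4 genes, 0.87 to 1.15, lay below the median of all promoters, and the ratio at Siglech, 0.43, stood at percentile 4.64.

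**Figure D1:**
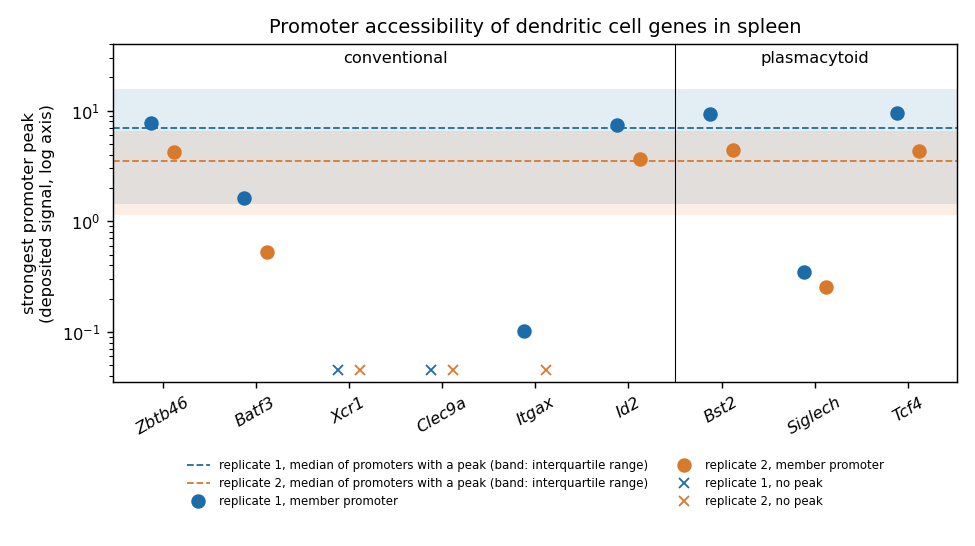
Strongest promoter peak of each gene in replicate 1 (blue) and replicate 2 (orange), as deposited signal on a log axis, with crosses for no peak. Dashed lines and bands give the median and the interquartile range of all promoters with a peak; Zbtb46, Id2, Tcf4 and Bst2 lie near the medians of 6.93 and 3.51, and Xcr1 and Clec9a have no promoter peak in either library.

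Zbtb46 encodes a zinc finger transcription factor found in conventional dendritic cells and their committed precursors. The gene lies on the minus strand at chr2:181387762-181459426 (mm10). Its most upstream TSS held 3 promoter peaks in each library, the strongest at 7.76 in replicate 1 and 4.26 in replicate 2. All 1001 bases within 500 bp of that TSS were below a false discovery rate (FDR) of 0.05 in both libraries, with smallest values of 2.45e-74 and 1.44e-72. A second TSS, 35038 bp downstream, had no peak in either library. The central peak held 5 footprints in replicate 1 and 3 in replicate 2.

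Batf3 encodes the AP-1 family factor on which the cross-presenting conventional dendritic cells depend. The gene spans chr1:191097847-191108945 on the plus strand. Its single promoter peak, over an untranslated exon, reached 1.62 in replicate 1 and 0.532 in replicate 2. Relative to all promoters the log2 ratio of the libraries, 1.61, was above the median by 0.32 and stood at percentile 87.2. The peak held 2 footprints in each library.

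Id2, on the minus strand at chr12:25093799-25097140, was accessible at an internal start rather than at its most upstream one. The TSS 1048 bp downstream of the first had a peak of 7.42 in replicate 1 and 3.64 in replicate 2. The first TSS had a weak peak of 0.349 in replicate 1 and none in replicate 2. In the strong peak, 8 footprints were called in replicate 1 and 6 in replicate 2. Its RefSeq promoter window (250 bp before to 50 bp after the start) held 3 matches to CCAAT, the letters bound by NFY, of which the one starting 76 bases before the start lay wholly inside footprints of both libraries, as did a GC box (GGGCGG, the core letters bound by SP and KLF factors) starting 16 bases before it. CCAAT was found in 37.4% of the 32851 RefSeq promoters and GGGCGG in 35.7%.

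Xcr1, the receptor for the chemokine XCL1, had no promoter peak and no base below an FDR of 0.05 within 500 bp of its TSS in either library. Clec9a, a C-type lectin receptor for dead cells, and the first TSS of Itgax, which encodes the integrin subunit CD11c, likewise had none. The genes lie at chr9:123852315-123862029 (minus strand), chr6:129408862-129424763 (plus strand) and chr7:128129547-128150657 (plus strand). Itgax had 3 weak peaks in replicate 1, the strongest 0.101, at a non-coding start 17947 bp downstream of the first, and no promoter peak in replicate 2. The sequences before the starts of Clec9a and Itgax are shown as those of promoters without a peak. Sequences here are the C57BL/6 reference (RefSeq, GRCm38.p6) read 5′ to 3′ on the gene's strand, with capitals for bases inside footprints of both libraries. The libraries also carry CAST/EiJ alleles, which may differ from these letters. No capitals appear in these runs because no footprint was called there in either library.
Clec9a promoter, chr6:129408612-129408861, plus strand: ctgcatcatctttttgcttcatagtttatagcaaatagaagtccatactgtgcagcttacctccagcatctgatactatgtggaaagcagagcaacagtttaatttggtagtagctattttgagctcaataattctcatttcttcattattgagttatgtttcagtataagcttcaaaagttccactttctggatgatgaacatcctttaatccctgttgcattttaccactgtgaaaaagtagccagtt
Itgax promoter, chr7:128129300-128129546, plus strand: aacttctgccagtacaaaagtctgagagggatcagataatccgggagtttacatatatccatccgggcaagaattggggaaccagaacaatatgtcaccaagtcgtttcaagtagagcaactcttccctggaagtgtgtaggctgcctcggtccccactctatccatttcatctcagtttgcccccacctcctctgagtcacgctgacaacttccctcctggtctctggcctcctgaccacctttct
The Clec9a run has 35.6% G and C and 0 CpG dinucleotides, and the Itgax run has 50.2% G and C and 5 CpG dinucleotides. In the Clec9a window no match was found to any of the 13 consensus words searched. The Itgax window held, among other matches, one TGANTCA, the AP-1 word, and one AGATAA, the GATA word, with no base below an FDR of 0.05 at either.

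Bst2 encodes tetherin, a membrane protein that holds budding virus at the cell surface and carries the PDCA-1 epitope used to recognise mouse plasmacytoid dendritic cells. The gene lies at chr8:71534255-71537456 on the minus strand. Its promoter peak reached 9.34 in replicate 1 and 4.37 in replicate 2, with 4 footprints in each. Within 500 bp of the TSS, 877 and 803 bases were below an FDR of 0.05. Its RefSeq promoter upstream of the start is shown because a pair of interferon regulatory factor words lies in it.
Bst2 promoter, chr8:71537473-71537722, minus strand: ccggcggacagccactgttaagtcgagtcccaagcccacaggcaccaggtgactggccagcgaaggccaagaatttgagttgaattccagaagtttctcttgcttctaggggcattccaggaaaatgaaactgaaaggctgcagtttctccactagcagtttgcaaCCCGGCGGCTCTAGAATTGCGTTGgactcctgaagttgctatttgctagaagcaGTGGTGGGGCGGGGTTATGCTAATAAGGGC
The pattern GAAANNGAAA, bound by interferon regulatory factors, matched in overlapping copies at bases 121 to 130 and 127 to 136 of this run. They begin 130 and 124 bases before the start and lie upstream of the called peak. All letters of both copies were below an FDR of 0.05 in both libraries. In replicate 1, 5 and 6 of the letters lay in footprints, and in replicate 2 none did. This pattern was found in 3.44% of RefSeq promoters. A GC box at bases 227 to 232 lay wholly inside footprints of both libraries.

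Siglech encodes a sialic acid-binding lectin of plasmacytoid dendritic cells. The gene lies at chr7:55768178-55778925 on the plus strand. Its promoter peak reached 0.345 in replicate 1 and 0.255 in replicate 2, at percentiles 6.6 and 3.66 of promoters with a peak. The peak was narrow (134 bp and 94 bp), and its smallest FDR was 0.0121 and 0.0265. It held 2 footprints in replicate 1 and 1 in replicate 2. It was lost when the shorter deposited list was used. The RefSeq promoter before the first annotated TSS is shown as the weakest promoter with a peak in both libraries.
Siglech promoter, chr7:55767934-55768177, plus strand: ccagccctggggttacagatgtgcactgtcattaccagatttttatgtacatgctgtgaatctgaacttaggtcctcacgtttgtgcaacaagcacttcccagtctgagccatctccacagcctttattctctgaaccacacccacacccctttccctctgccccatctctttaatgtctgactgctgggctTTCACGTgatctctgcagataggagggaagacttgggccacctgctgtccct
Only 7 of these 244 bases lay in footprints of both libraries. The E-box CAGGTG, a word bound by E proteins such as TCF4, matched at bases 231 to 236, within the peak of both libraries and outside the footprints of both. It was found in 20.2% of RefSeq promoters.

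Tcf4, the E protein required for plasmacytoid dendritic cells, is a long gene with many starts, at chr18:69343356-69689079 on the plus strand. Its TSSs fall into 18 groups more than 500 bp apart, of which 5 had a peak in both libraries. The strongest were the group 790 bp downstream of the first TSS, with 9.55 in replicate 1 and 4.31 in replicate 2, and the group 249632 bp downstream, with 8.98 and 3.19. The other 3 groups with a peak in both had signals of 0.341 to 1.37 in replicate 1 and 0.247 to 0.595 in replicate 2. The first TSS itself had no peak in replicate 1 and one of 0.272 in replicate 2. The accessible starts of this gene were thus a few of many, with 2 strong ones at distant positions.

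The strong start sites of these genes had more CpG dinucleotides than those without a peak. Within 500 bp of the start, Zbtb46 had 134 CpG dinucleotides at its accessible TSS and 16 at the one without a peak. The accessible starts of Batf3 and Id2 had 60 and 57, the 2 strong starts of Tcf4 had 46 and 47, and Bst2 had 40. The first starts of Xcr1, Clec9a and Itgax had 11, 4 and 15, and all starts of the 9 genes without a peak in either library had 4 to 22. Few CpG dinucleotides did not exclude a weak peak in both libraries. Siglech had 9 at its start, and a Tcf4 start with 17 had 0.341 in replicate 1 and 0.247 in replicate 2. Over all protein-coding genes, a promoter accessible in both libraries was found in 18.9% of those with 0 to 18 CpG dinucleotides at the first TSS, in 72.9% of those with 19 to 60 and in 91.3% of those with 61 to 172. By its first TSS, with 12, Tcf4 also falls in the lowest of these groups, although its strong starts do not. The difference among the start sites of these genes had the direction seen over all genes.

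**Figure D2:**
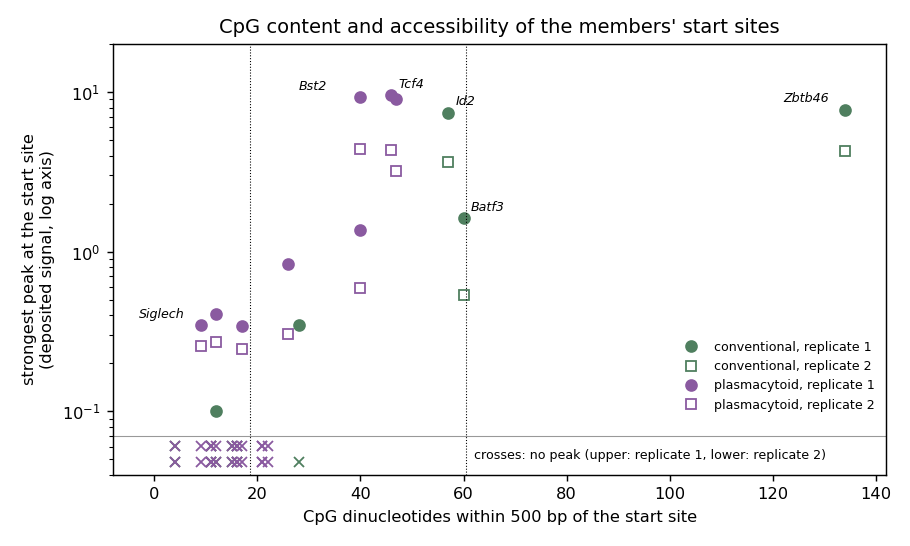
CpG dinucleotides within 500 bp of each start site of the 9 genes (x axis) and the strongest peak there as deposited signal on a log axis (y axis), with conventional genes in green, plasmacytoid genes in purple, replicate 1 as filled circles and replicate 2 as open squares. Crosses mark starts without a peak and dotted lines the tercile limits of all protein-coding genes; strong peaks of the 9 genes are at starts with 40 or more CpG dinucleotides.

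Inside the genes, outside promoters, conventional genes held 8 sites in both libraries and plasmacytoid genes held 10. At least 1 such site was found in 4 of 6 conventional genes and in 1 of 3 plasmacytoid genes, against 44.9% of all genes. Per length, this was 0.602 sites per 10 kb over the conventional genes and 0.278 over the plasmacytoid genes. All 10 sites of the plasmacytoid list were in introns of Tcf4, which is 345724 bp long. Without Itgax the conventional count was 5. The median of all genes was 0 sites, so a gene with any such site stands above it.

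The receptor genes without a promoter peak were not without accessible sites. Itgax held 3 sites in both, or 1.42 per 10 kb, above the 90th percentile of all genes (1.15). They were weak, with signals of 0.585, 0.39 and 0.465 in replicate 1 and 0.327, 0.523 and 0.36 in replicate 2. Clec9a held a single site in both, in an untranslated exon at chr6:129423761-129423960, which reached 2.23 in replicate 1 and 1.57 in replicate 2 and held 4 footprints in each. Xcr1 held one of 0.476 and 0.553 in its untranslated exon, beside a promoter site of the neighbouring gene Fyco1 with 12.6 and 6.57. The strongest site of Xcr1 outside all promoters was in an intron of Fyco1, at 1.72 and 1.24.

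**Figure D3:**
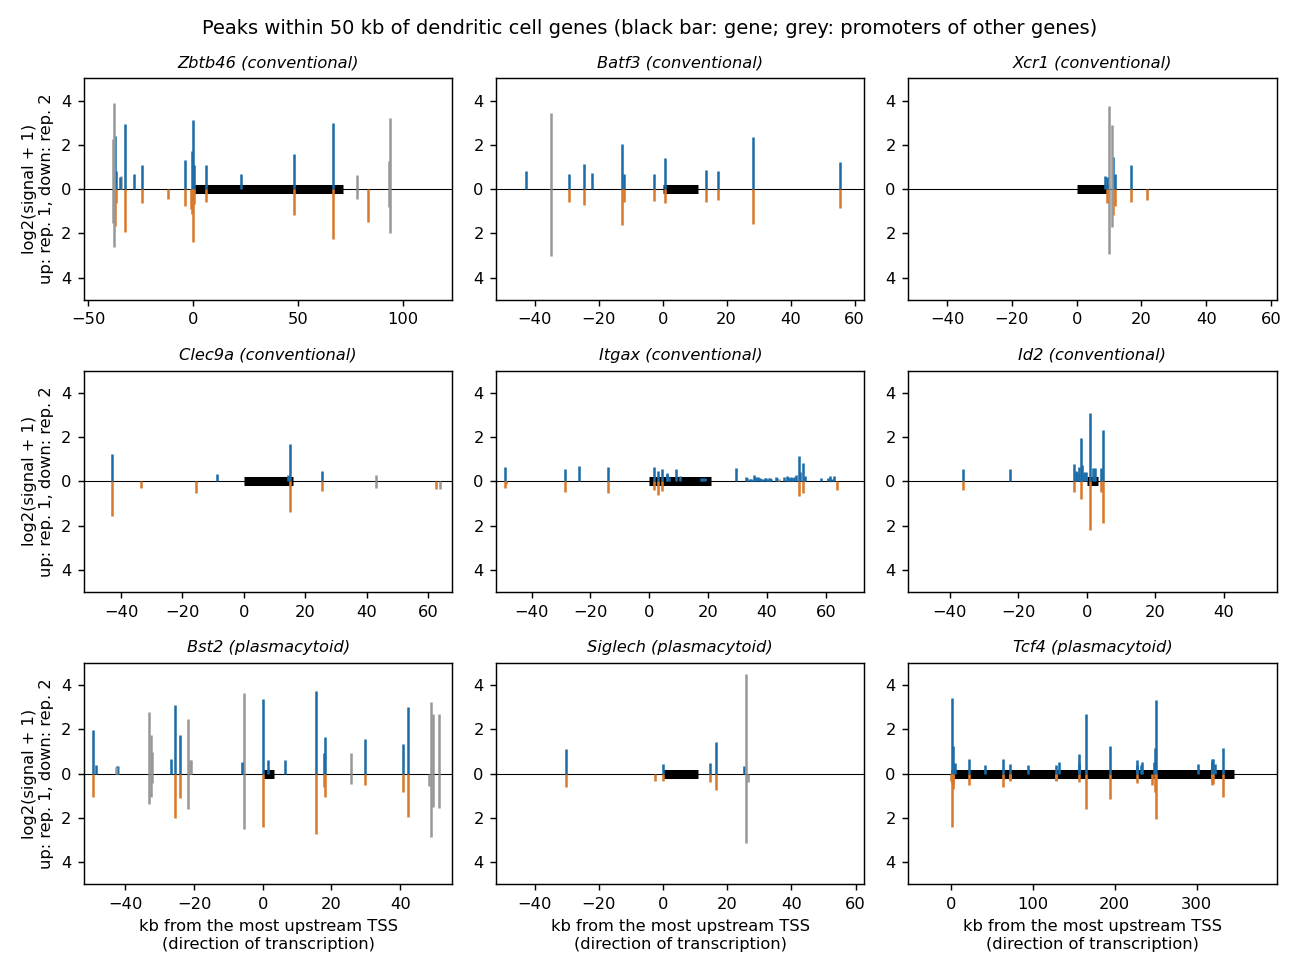
Peaks within 50 kb of each gene by distance from its most upstream TSS in kb, with log2(signal + 1) of replicate 1 upwards and of replicate 2 downwards. Black bars are the genes and grey lines promoters of other genes; the 2 strong starts of Tcf4 and the run of weak replicate 1 peaks beyond the end of Itgax stand out.

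Around Itgax the 2 libraries differed. Replicate 1 had 60 peaks in the window of the gene and 50 kb either side, and replicate 2 had 11, a ratio of 5.45 at percentile 99.6 of 15943 genes with 5 or more replicate 2 peaks (median ratio 1.2). Of these, 43 peaks of replicate 1 and 3 of replicate 2 lay downstream of the gene, toward Itgad. The median signal of the 60 peaks was 0.131, and 25 of them were below 0.124, the 5th percentile of all peaks in replicate 1. Some weak peaks had very small FDR values. An Itgax intron peak with a signal of 0.3 in replicate 1 reached 6.78e-18, whereas a Tcf4 intron peak of 0.308 in the same library reached 0.0271. Among strong promoter peaks of replicate 1, Id2 with 7.42 reached 7.11e-125 and Zbtb46 with 7.76 reached 2.45e-74. Signal and FDR thus did not rank these loci alike, and the reason was not tested. The replicate 1 promoter count of 4 of 6 includes the weak Itgax peaks. Id2 had the next highest ratio of the 9 genes, 2.5 at percentile 95.9, with 15 peaks in replicate 1 and 6 in replicate 2. The remaining genes stood at percentiles 5.75 to 76.7.

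In the windows of 50 kb either side, conventional genes had 51 sites in both and plasmacytoid genes had 41, or 6.96 and 6.22 per 100 kb. The median conventional gene had 6.21 and the median plasmacytoid gene 4.51 per 100 kb, against 5.52 for the median of all genes. Bst2 had the densest window, with 19 sites or 18.4 per 100 kb, at percentile 95.1 of all genes, and 9 of its sites were at promoters of other genes. Batf3 followed with 9.9 and Zbtb46 with 9.32 per 100 kb. Clec9a and Tcf4 had the lowest densities, 3.45 and 3.81. Tcf4 had no site in both libraries in its flanks.

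**Figure D4:**
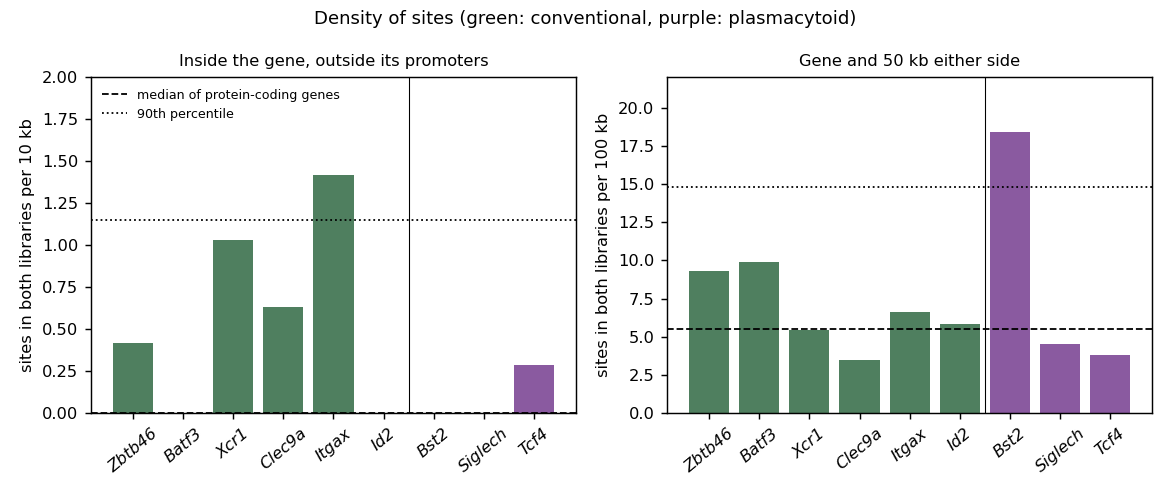
Sites in both libraries per 10 kb inside each gene outside its promoters (left) and per 100 kb in the gene with 50 kb either side (right), with conventional genes in green and plasmacytoid genes in purple. Dashed and dotted lines are the median and the 90th percentile of all protein-coding genes; Itgax is above 1.15 on the left and Bst2 above 14.8 on the right.

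The strongest sites outside promoters lay near Bst2, Zbtb46, Tcf4, Batf3 and Id2. A site in a coding exon of Ccdc194, downstream of Bst2, reached 12.2 in replicate 1 and 5.56 in replicate 2. Zbtb46 had an intronic site of 6.86 and 3.79 and an upstream site of 6.62 and 2.83. The strongest Tcf4 intron site had 5.51 and 2.01. Near Batf3 a site 28293 bp downstream of the first TSS had 4.11 and 1.96, and near Id2 one 4709 bp downstream of its first TSS had 4.02 and 2.65. Outside the gene itself, the strongest site of Clec9a had 1.32 and 1.95, that of Itgax 1.2 and 0.574 in an intron of Itgad, and that of Siglech 1.73 and 0.691. This Clec9a site was higher in replicate 2, at percentile 2.07 of the log2 ratio over sites in both.

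Among the strongest sites, 4 are shown that share one pattern of letters inside footprints.
Zbtb46 intron, chr2:181392701-181392880, minus strand: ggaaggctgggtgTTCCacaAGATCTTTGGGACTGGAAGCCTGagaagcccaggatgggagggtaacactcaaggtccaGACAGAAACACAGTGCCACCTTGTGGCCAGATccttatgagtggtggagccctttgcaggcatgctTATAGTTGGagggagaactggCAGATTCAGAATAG
Id2 flank, chr12:25092341-25092520, minus strand: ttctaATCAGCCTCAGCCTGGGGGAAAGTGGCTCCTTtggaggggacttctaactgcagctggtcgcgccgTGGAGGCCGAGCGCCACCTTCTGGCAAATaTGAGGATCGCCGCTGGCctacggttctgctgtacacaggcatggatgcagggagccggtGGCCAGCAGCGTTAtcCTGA
Clec9a flank, chr6:129365981-129366160, plus strand: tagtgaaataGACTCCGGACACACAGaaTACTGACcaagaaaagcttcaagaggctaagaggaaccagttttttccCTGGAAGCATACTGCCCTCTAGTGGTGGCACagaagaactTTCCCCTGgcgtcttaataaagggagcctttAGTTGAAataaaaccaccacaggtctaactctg
Bst2 flank, chr8:71521761-71521940, minus strand: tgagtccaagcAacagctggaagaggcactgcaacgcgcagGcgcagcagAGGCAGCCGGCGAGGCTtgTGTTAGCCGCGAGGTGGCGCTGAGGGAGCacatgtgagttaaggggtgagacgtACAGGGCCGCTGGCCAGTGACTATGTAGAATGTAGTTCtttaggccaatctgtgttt
The pattern CCNNNAGNNGGC, part of the consensus of the insulator protein CTCF and looked for after these sequences had been read, matched at bases 94 to 105, 84 to 95, 90 to 101 and 76 to 87 of these runs, on one strand or the other. All 12 letters lay inside footprints of both libraries at each of the 4 sites. The Tcf4 intron site also held a match at footprints of both libraries, but its letters inside them were not counted. The pattern was present in 5 of the 13 strongest sites named (38.5%), and in 12 of the 59 sites in both outside promoters near these genes (20.3%). Over all 48823 sites in both outside promoters, 28% held it, with 15.9% in the lowest decile of signal and 50.2% in the highest. The share near these genes was below that over all such sites, and this difference was not tested.

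Footprints were counted in peaks at promoters and inside the genes. Conventional genes had 63 footprints in 30 peaks in replicate 1 and 41 in 13 peaks in replicate 2, and plasmacytoid genes had 77 in 33 peaks and 70 in 25 peaks. Per 100 bp of peak this was 0.936 and 1.3 for conventional genes, 1.34 and 1.38 for plasmacytoid genes, and 1.35 and 1.24 for all peaks. Itgax was low in replicate 1, at 0.527 per 100 bp, and without it the conventional genes had 1.23 in replicate 1 and 1.36 in replicate 2. Tcf4 held 69 of the 77 and 65 of the 70 plasmacytoid footprints. Stronger peaks held more footprints over all genes, with means of 0.528 in the weakest and 4.48 in the strongest decile of replicate 1, and the peaks of these genes varied around those means.

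**Figure D5:**
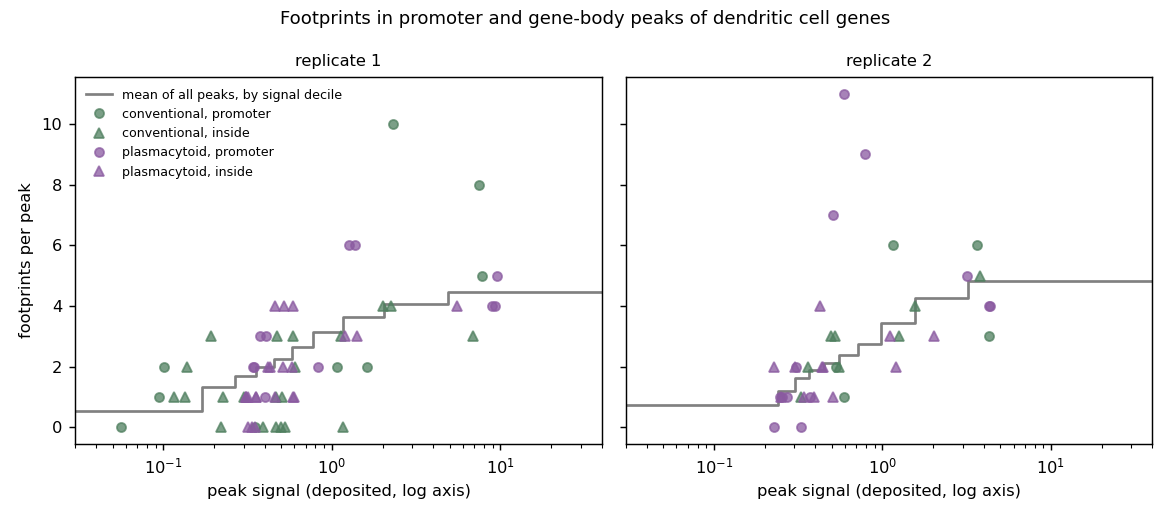
Footprints per peak against peak signal (log axis) for promoter peaks (circles) and peaks inside the gene (triangles) of conventional (green) and plasmacytoid (purple) genes, replicate 1 left and replicate 2 right. The grey step is the mean of all peaks by decile of signal, which goes up to 4.48 in replicate 1 and 4.82 in replicate 2.

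Other genes of the lineages were counted from 2 lists. Of 18 other conventional dendritic cell genes, 13 (72.2%) had promoter peaks in both libraries, and of 15 other plasmacytoid genes 11 (73.3%) did, against 60.7% of all genes. Where a promoter peak was called, its median signal in replicates 1 and 2 was 2.65 and 1.31 in the conventional list and 1.59 and 0.808 in the plasmacytoid list, against 6.93 and 3.51 over all promoters with a peak. The strongest of the conventional list were Notch2, a receptor needed by splenic conventional dendritic cells, with signals of 18 in replicate 1 and 7.61 in replicate 2, Relb, an NF-kappaB subunit, with 16.7 and 7.22, and Klf4, a zinc finger factor, with 6.43 and 2.39. Itgae, Clec10a, Cd209a and Clec4a4 had none in either library, and Cd8a had one in replicate 1 alone. In the plasmacytoid list the strongest were Ptprs, a receptor phosphatase, with 9.71 and 3.92, Ccr9, a chemokine receptor, with 4.57 and 2.42, and Irf7, a regulator of interferon genes, with 4.07 and 2.26. Cox6a2, Klra17, Upb1 and Lag3 had none in either library. Among the lineage regulators of both lists, Irf8 had 5.22 and 2.28, Irf4 had 2.91 and 1.31, and Spib had 2.26 and 1.18. Many of these genes are also used by B cells or macrophages, for which promoters were checked above, and the part of those cells in the values was not tested.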

How the data were processed

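DNase-seq of 2 spleen libraries was analysed from the deposited files on mm10. Per the deposited README, each file comes from its own library's filtered alignment, with no pooling. No source used here names the aligner or the peak and footprint callers. Peak signal, as deposited by the authors, is a scaled cut density. The deposited FDR values (a q-value of the cut rate) are listed only below 0.05. The footprint score column, as deposited by the authors, was a constant and was not used.

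The longer peak list was used. Peaks of the libraries overlapping by at least 1 bp were merged into sites. GENCODE M21 gave genes and TSSs. RefSeq promoters (GRCm38.p6) matched 8 of 9 genes by symbol, and sequence was read from the same build. Words were searched on both strands, with GAGGAAG for the family of ETS factors, TGANTCA for the family of AP-1 factors, GAAANNGAAA for interferon regulatory factors and GGAANNGAAA for these together with ETS factors. The E-box words were CAGGTG, which several E proteins prefer, and a second form, CAGCTG. Others were TGTGGT for the family of RUNX proteins, AGATAA for the family of GATA proteins, GGGCGG for the SP and KLF families of zinc finger proteins, CCAAT for the nuclear factor NFY, TTANNTAA for the leucine zipper factor NFIL3, and AGGGGGC for the insulator protein CTCF. CCNNNAGNNGGC was added for the same protein after reading sequences. Matches of a word may overlap. Python 3.11.15, numpy 2.4.6 and pysam 0.24.0 were used. The assignment of peaks to promoters was tested on peaks planted at start sites, which checks the counting of overlaps and not the deposited peak calls. All 9 members are named, with the strongest site inside and outside each gene, and of each other list the 3 strongest genes and those without a peak. Irf8, Irf4, Spib and Cd8a were named after their values were seen. Members, lists and words were chosen with earlier results of these data known. Some sequences and marker genes are not reported here.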

Additional observations from a re-analysis of the deposited data

How the results depend on the processing

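Promoter counts were 2 to 4 conventional genes and 2 to 3 plasmacytoid genes under the alternatives run, against 3 and 3 as reported. All were within 1.5 times of those reported. That limit allows any count from 2 to 4 here, so it was a weak check. Siglech was lost with the shorter list, Siglech and Batf3 with peaks at or above the median signal, Id2 and Tcf4 with the most upstream TSS alone, and Itgax was added at 1000 bp. Median promoter signal in replicates 1 and 2 was 7.42 and 3.64 for conventional genes and 9.34 and 4.31 for plasmacytoid genes. Settings were compared by the mean of the libraries' medians, which mixes 2 scales and is no signal of either library. This mean was 5.53 for conventional genes, between 3.3 and 5.77 elsewhere, and 6.83 for plasmacytoid genes, between 3.58 and 6.89. Site counts moved more. The cause was not tested, except where the setting itself meant that fewer or more peaks, genes or bases were counted. With the shorter list, conventional genes had 4 sites inside and 32 in the windows, and plasmacytoid genes had 6 inside. With peaks at or above the median signal, conventional genes had 3 inside and 28 in the windows, and plasmacytoid genes had 3 and 24. Leaving out each replicate gave 8 to 19 inside and 61 to 119 in the windows for conventional genes, and 12 to 21 and 49 to 64 for plasmacytoid genes. This setting asks for a peak in the remaining library alone, so its counts could not fall below those of sites in both. Windows of 100 kb, which contain those of 50 kb and so could not hold fewer sites, held 107 and 68. Chosen after seeing the data, leaving out Itgax gave 5 inside for conventional genes, and leaving out Tcf4 gave 0 inside, 24 in the windows and 13 footprints for plasmacytoid genes. Footprints that overlapped between the libraries, counted once, were 28 for conventional and 28 for plasmacytoid genes, against 104 and 147 summed over libraries. No paired analysis was possible because there is 1 group and no contrast. Read depth is unknown, so a missing peak means that none was called, not that the DNA was closed in every cell.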
